A study of Mus musculus with 12 samples.

Results

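The 8 genes described here, Rlbp1, Glul, Slc1a3, Aqp4, Kcnj10, Car14, Sox9 and Dkk3, are homeostatic genes of Müller glia. They were taken as a named list, and their Ensembl identifiers were found among the 54146 genes counted in each library. All 8 were detected in all 12 libraries and all 8 passed the filter on low counts, which kept 18628 genes. RNA of whole retinas, RPE included, had been sequenced from 12 mice with 1 library per mouse, to follow gene expression after photoreceptor-specific loss of Otx2, a homeodomain transcription factor of photoreceptors, bipolar cells and RPE. Mice 1 to 3 were the P30 control mice, for which the labels give no genotype beyond control and the study's methods give collection at 0 d after tamoxifen. Mice 4 to 6 (P32), 7 to 9 (P34) and 10 to 12 (P38) were Crx-CreERT2;Otx2 flox/flox cKO mice, injected once with tamoxifen at P30 and collected 2, 4 and 8 d later. All strains were kept on a 129/SV background. The Crx-CreERT2 transgene drives recombination in photoreceptors, so in these mice the glia themselves were not the cells targeted. What age, tamoxifen and the deletion each add to a difference from the P30 mice cannot be told apart. Sex also differed between the groups and is partly bound up with these comparisons. By the counts of Xist, all 3 P30 mice were female, against 2, 1 and 1 of 3 at P32, P34 and P38.

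Müller glia are the main macroglia of the retina and span its whole thickness from the vitreous border to the photoreceptor inner segments. They clear glutamate and turn it into glutamine, siphon potassium into the vitreous and vessels, move water, buffer pH and carry retinoids for cone vision. When the retina is damaged they commonly become reactive, with a rise of GFAP and a loss of some of these housekeeping proteins. In whole-retina RNA, fewer Müller cells and less RNA per cell cannot be told apart.

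None of the 8 genes passed the threshold at any age after deletion. The threshold was a Benjamini-Hochberg adjusted p no higher than 0.05 in the quasi-likelihood test of edgeR, with a log2 fold change of 0.5 or more in either direction. Against P30, 0 of 8 genes passed at P32, P34 and P38, where 0%, 0.66% and 0% of all genes tested did so. DESeq2 also called 0 of 8 at each age, where it called 0.134%, 1.98% and 0.242% of all genes. At an unadjusted p of at most 0.05, 1 of 8 genes was past the limit at P32 (Aqp4, beside 5.64% of all genes), 3 of 8 at P34 (Kcnj10, Car14 and Dkk3, beside 10.5%) and 0 of 8 at P38 (beside 5.64%). Groups apart, with every cKO mouse on one side of every P30 mouse, were found for 0, 3 and 1 of the 8 genes at P32, P34 and P38, and for 9.65%, 20.1% and 16.2% of all genes. The largest difference from P30 in size was a log2 fold change of -0.42, that of Dkk3 at P34. All 24 intervals of the log2 fold change (95%) lay between -0.73 and 0.72, which is 0.603-fold to 1.65-fold of the P30 level. An interval within 1 log2 unit of zero was found for 73.6%, 72.2% and 73.8% of all genes at P32, P34 and P38. At P32, P34 and P38 the 8 genes had median log2 fold changes of -0.0026, 0.05 and -0.12, beside -0.0088, -0.0013 and -0.0091 for all genes tested.

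**Figure D1:**
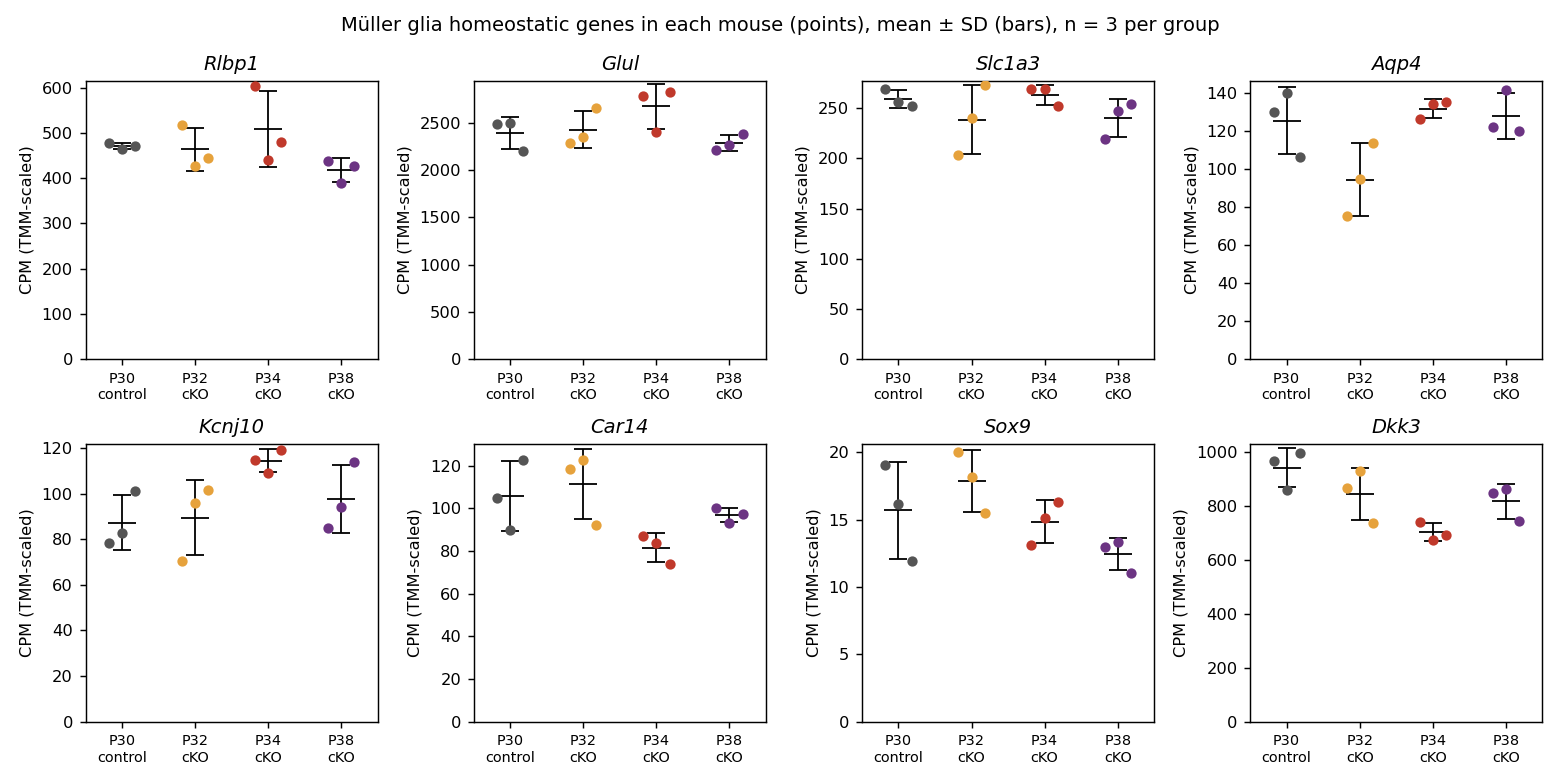
CPM (counts scaled to library size, with TMM factors, linear axes from 0) of the 8 genes in each of the 12 mice (points), with the mean and SD of the 3 mice of each group (bars). The P34 mice lie apart from the P30 mice in Kcnj10 (109 to 119 against 78.2 to 101 CPM), Car14 (73.8 to 86.8 against 89.6 to 123 CPM) and Dkk3 (675 to 742 against 859 to 995 CPM), and the groups overlap at P32 in all 8 genes.

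The levels of the genes within the retina spanned a wide range. Scaled for exonic length (FPKM, which is CPM divided by the exonic length in kilobases), Glul was highest in the P30 mice at 722 ± 51.1 FPKM (SD, n = 3), rank 30 of the 18614 genes with a length. Dkk3 followed at 280.0 ± 21.5 FPKM (rank 56) and Rlbp1 at 160 ± 2.16 FPKM (rank 130). Car14 stood at 41.5 ± 6.48 FPKM, Slc1a3 at 30.3 ± 1.03 FPKM and Aqp4 at 20.1 ± 2.79 FPKM. Kcnj10 followed at 16.1 ± 2.25 FPKM, and these neighbours were the only ones whose mice overlapped in level. Sox9 was the lowest at 3.80 ± 0.866 FPKM, near the middle of all genes tested (50.9% of them were lower). Together the 8 genes took 0.363 to 0.478% of the counts of a library, and Glul alone took 0.199 to 0.281%.

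**Figure D2:**
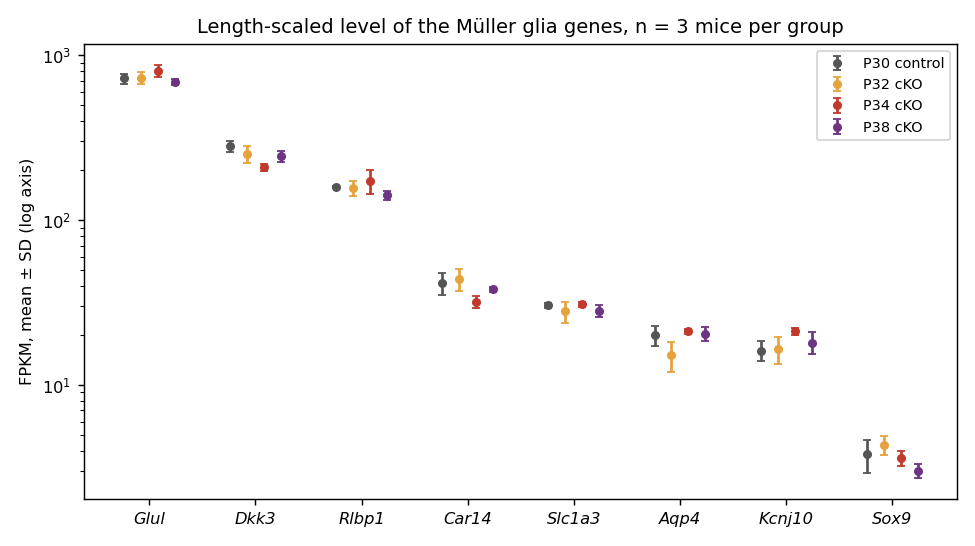
Length-scaled level (FPKM, log axis) of the 8 genes in each group, mean and SD of 3 mice, ordered by the P30 mean. The order runs from Glul (722 FPKM at P30) to Sox9 (3.80 FPKM), and the 4 groups sit close together within each gene.

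Promoter windows were available for 5 of the 8 genes (Rlbp1, Glul, Slc1a3, Kcnj10 and Car14) in the RefSeq table for GRCm38.p6. The letters of the core bound by OTX2 and CRX (TAATCC) and of SOX factors such as SOX9 (ACAAAG and AACAAT) were searched on both strands in the 250 bases before the start. These motifs were chosen because Otx2 is the gene deleted and Sox9 is among the 8 genes. TAATCC stood in the window of Car14 alone among the 5 and in 6.25% of all 32851 windows. ACAAAG stood in that of Rlbp1 alone, on the opposite strand, and in 16.5% of all windows. AACAAT stood in none of the 5 and in 9.42% of all windows. The 120 bases before the RefSeq start of both genes are shown, 5′ to 3′ on the gene's strand, with the motif in capitals, for Car14 at chr3:95904686-95904805 and for Rlbp1 at chr7:79387028-79387147, both on the minus strand. The last 6 bases for Car14 and the last 21 for Rlbp1 lie inside the GENCODE gene, whose start is upstream of the RefSeq one. A match is a run of letters, and binding was not measured in these data.
Car14: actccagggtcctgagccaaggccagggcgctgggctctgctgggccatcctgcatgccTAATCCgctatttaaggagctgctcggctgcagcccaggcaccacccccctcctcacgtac
Rlbp1: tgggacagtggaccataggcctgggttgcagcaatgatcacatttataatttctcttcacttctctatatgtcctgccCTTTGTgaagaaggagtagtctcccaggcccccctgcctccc

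Slc1a3 (ENSMUSG00000005360, GRCm38 chr15:8634124-8710764, minus strand) encodes GLAST, the glutamate transporter that takes up most of the glutamate cleared by Müller glia. It was counted at 269, 256 and 252 CPM in P30 mice 1, 2 and 3. P32 mice had 203, 240.0 and 273 CPM, P34 mice 269, 269 and 252 CPM, and P38 mice 219, 248 and 255 CPM. The lowest and the highest value both belonged to P32 mice, and the groups overlapped at every age. Against P30 the log2 fold changes at P32, P34 and P38 were -0.12, 0.02 and -0.11, each with an SE of 0.11 (adjusted p = 0.733, 0.967 and 0.895, edgeR). These were the smallest standard errors among the 8 genes. Gm37310, which overlaps Slc1a3 on the same strand, had at most 71 counts in a library against at least 6778 for Slc1a3.

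Glul (ENSMUSG00000026473, GRCm38 chr1:153899944-153909723, plus strand) encodes glutamine synthetase, which converts the glutamate taken up into glutamine. P30 mice 1, 2 and 3 had 2488, 2504 and 2202 CPM. The P32 mice had 2283, 2353 and 2656 CPM, the P34 mice 2791, 2406 and 2828 CPM, and the P38 mice 2212, 2271 and 2382 CPM. P30 mouse 3 was the lowest of the 12, and all P38 mice lay below all P34 mice. Against P30, Glul had log2 fold changes of 0.02, 0.16 and -0.07, each with an SE of 0.13 (adjusted p = 0.967, 0.699 and 0.948, edgeR). From P34 to P38 it was -0.23 (SE 0.13), which did not pass either (adjusted p = 1).

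The other genes of glutamate and glutamine handling were counted as a list of 7, of which 0 passed at any age. Slc38a3 (a glutamine transporter), Slc1a2 (the glutamate transporter GLT-1) and Glud1 (glutamate dehydrogenase) were the most abundant, with log2 fold changes at P34 of -0.08, 0.0078 and 0.07. The list's median log2 fold changes were -0.00064, 0.0078 and 0.09. Slc7a11, the cystine and glutamate exchanger, was at 22.7, 15.7 and 26.4 CPM in the P30 mice and at 2.60, 2.60 and 3.18 CPM in the P34 mice. Those groups did not overlap, yet the log2 fold change of -2.95 (SE 0.67) missed the threshold (adjusted p = 0.0954, edgeR). P32 mouse 6 (5.64 CPM) and P38 mouse 12 (5.26 CPM) were also low for Slc7a11, against 21.6 to 43.2 CPM in the other P32 and P38 mice. The gene passed under 6 of 22 alternative settings (adjusted p over all settings 0.000516 to 0.784), among them DESeq2 (adjusted p = 0.00358) and the fits without P32 mouse 6 (0.0358) or P38 mouse 12 (0.0131). With a ciliary body score as covariate its log2 fold change was 1.72 (SE 1.09).

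Kcnj10 (ENSMUSG00000044708, GRCm38 chr1:172341210-172374085, plus strand) encodes Kir4.1, the channel through which Müller glia pass potassium. P30 mice 1, 2 and 3 had 78.2, 82.6 and 101 CPM. The P32 mice had 70.6, 95.9 and 102 CPM, and the P38 mice 85.0, 94.0 and 114 CPM. All P34 mice, at 115, 109 and 119 CPM, were above all P30 mice and all P32 mice. Log2 fold changes from P30 were 0.04, 0.39 and 0.16, each with an SE of 0.15, and none passed (adjusted p = 0.948, 0.403 and 0.878, edgeR). Its P34 interval ran from 0.06 to 0.72.

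Aqp4 (ENSMUSG00000024411, GRCm38 chr18:15389496-15410982, minus strand) encodes the water channel aquaporin-4, held with Kir4.1 at the glial endfeet by the dystroglycan complex. It was at 129.9, 139.9 and 106 CPM in P30 mice 1, 2 and 3. At P32 it was at 74.9, 94.6 and 113 CPM, so that mice 4 and 5 lay below all other mice and mouse 6 lay within the P30 range. P34 mice had 126, 134 and 135 CPM and P38 mice 122, 141 and 119.9 CPM. At P32 the log2 fold change was -0.41 (SE 0.15, interval -0.73 to -0.09, adjusted p = 0.698, edgeR), and those at P34 and P38 were 0.07 and 0.03. Between P32 and P34 it was 0.48 (SE 0.15, adjusted p = 0.0976), with all P34 mice above all P32 mice. Without P32 mouse 6, Aqp4 passed against P32 at P34 (log2 fold change 0.64, adjusted p = 0.0185) and at P38 (0.59, adjusted p = 0.0291), and Car14 passed at P34 (-0.56, adjusted p = 0.0186). P32 mice 4 and 5, which remain in those fits, stood at 29460 and 22390 CPM in the sum of 8 lens markers, against 487 CPM in mouse 6 and 181 to 502 CPM in the P34 mice. P30 mouse 3, the next lowest in Aqp4, stood at 26000 CPM, and the part of lens RNA in the values of Aqp4 was not tested. In the fits without mouse 6, 14.3% of all genes passed between P32 and P34 and 10.2% between P32 and P38.

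Of 10 further genes for potassium, water and dystroglycan anchoring, 0 passed at any age. Atp1b2 (a beta subunit of the sodium pump), Dmd (dystrophin) and Dag1 (dystroglycan) were the most abundant. Their log2 fold changes were -0.16, -0.44 and -0.28 at P32 and 0.19, 0.07 and -0.06 at P34, where all P34 mice lay above all P30 mice for Atp1b2 (adjusted p = 0.688, edgeR). The median log2 fold changes of the list were -0.24, 0.08 and 0.12 at P32, P34 and P38.

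Car14 (ENSMUSG00000038526, GRCm38 chr3:95897768-95904691, minus strand) encodes the membrane-bound carbonic anhydrase XIV, found on Müller glia and RPE, where it takes part in acid and carbon dioxide handling. P30 mice 1, 2 and 3 had 105, 89.6 and 123 CPM and P32 mice 118, 123 and 92.4 CPM. All P34 mice, at 86.8, 83.7 and 73.8 CPM, lay below all mice of the other groups. At P38 the values were 100.1, 93.3 and 97.2 CPM, within the P30 range. Car14 had log2 fold changes from P30 of 0.07, -0.37 and -0.12, each with an SE of 0.13 (adjusted p = 0.851, 0.348 and 0.898, edgeR), and between P32 and P34 the value was -0.45 (SE 0.13, adjusted p = 0.0968). Aph1a, which overlaps Car14 on the opposite strand, had 171 to 479 counts in a library against at least 2181 for Car14. Among 11 other genes of acid and bicarbonate handling 0 passed at any age. The most abundant were Bsg (basigin), Car2 (carbonic anhydrase II) and Slc16a1 (a lactate transporter), with log2 fold changes at P34 of -0.04, 0.10 and 0.07. Slc4a4, a sodium bicarbonate cotransporter, had log2 fold changes of -0.91, -0.68 and -0.55, which did not pass (adjusted p = 0.698, 0.293 and 0.847). It was at 19.7, 37.6 and 33.0 CPM in P30 mice 1, 2 and 3 and at 14.7 to 23.6 CPM in the cKO mice. P30 mouse 1 thus lay within the cKO range. Mice 2 and 3 were also the highest in summed RPE markers (510 and 557 CPM, against 176 CPM in mouse 1). The part of RPE in the values of Slc4a4 was not tested.

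Rlbp1 (ENSMUSG00000039194, GRCm38 chr7:79374870-79387048, minus strand) encodes CRALBP, the retinaldehyde-binding protein of Müller glia and RPE. It was nearly level among the P30 mice at 478, 465 and 471 CPM. The P32 mice had 518, 427 and 445 CPM, the P34 mice 604, 441 and 481 CPM, and the P38 mice 438, 388 and 427 CPM. P34 mouse 7 was the highest of the 12, and all P38 mice lay below all P30 mice. Rlbp1 had log2 fold changes of -0.02, 0.11 and -0.17, each with an SE of 0.13, and none passed (adjusted p = 0.957, 0.822 and 0.850, edgeR). The summed level of 12 RPE markers was 176, 510 and 557 CPM in P30 mice 1, 2 and 3 and 108 to 240 CPM in the cKO mice. The pigment gene Pmel was at 25.1, 258 and 202 CPM in those P30 mice, and the retinoid isomerase gene Rpe65 at 13.2, 5.59 and 21.5 CPM, so the markers of that list did not vary alike. The part of RPE in the values of Rlbp1 was not tested. Of 9 other genes of retinoid handling 0 passed. Dhrs3, Rdh11 and Degs1, enzymes of retinoid or lipid metabolism, were the most abundant, with log2 fold changes at P34 of -0.20, 0.06 and -0.22.

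Sox9 (ENSMUSG00000000567, GRCm38 chr11:112782224-112787760, plus strand) encodes an HMG-box transcription factor that marks Müller glia and astrocyte nuclei. P30 mice 1, 2 and 3 had 19.0, 16.2 and 11.9 CPM. The P32 mice had 20.04, 18.2 and 15.5 CPM, the P34 mice 13.1, 15.1 and 16.3 CPM, and the P38 mice 12.96, 13.3 and 11.1 CPM. The P30 mice spanned nearly the whole range, and the P38 mice lay below all P32 mice. Sox9 had log2 fold changes from P30 of 0.19, -0.08 and -0.34, each with an SE of 0.17 (adjusted p = 0.726, 0.914 and 0.847, edgeR). Between P32 and P38 it was -0.52 (SE 0.17), the largest among the 8 genes in any pairwise comparison, and did not pass (adjusted p = 0.131). Among 11 other glial transcription factor and Notch pathway genes 0 passed. Their median log2 fold changes were 0.07, -0.17 and -0.26. Nfib, a nuclear factor I of late progenitors and glia, had all P34 and P38 mice below all P30 mice and did not pass (log2 fold change -0.34 and -0.29, adjusted p = 0.338 and 0.847). Rax and Nfia, with Nfib the most abundant of the list, had log2 fold changes at P34 of -0.17 and -0.07.

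Dkk3 (ENSMUSG00000030772, GRCm38 chr7:112116017-112159057, minus strand) encodes a secreted glycoprotein of the Dickkopf family that Müller glia express. It was at 968, 859 and 995 CPM in P30 mice 1, 2 and 3. The P32 mice had 865, 927 and 738 CPM, the P34 mice 742, 675 and 692 CPM, and the P38 mice 846, 864 and 743 CPM. All P34 mice lay below all P30 mice, and P38 mice 10 and 11 lay near the lowest P30 mouse. Dkk3 had log2 fold changes of -0.16, -0.42 (interval -0.69 to -0.15) and -0.20, each with an SE of 0.12, with adjusted p = 0.703, 0.238 and 0.847 (edgeR). With DESeq2 the P34 difference had an adjusted p of 0.0187 and a log2 fold change of -0.42, under the limit of 0.5. Among 8 other Dickkopf family and receptor genes, 7 were tested and 0 passed, and Dkk4 was at 0 counts. Lrp6, a Wnt co-receptor, and Kremen1, a Dickkopf receptor, were the most abundant and had log2 fold changes at P34 of -0.05 and 0.02, and Lrp5, the other co-receptor, had -0.16.

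**Figure D3:**
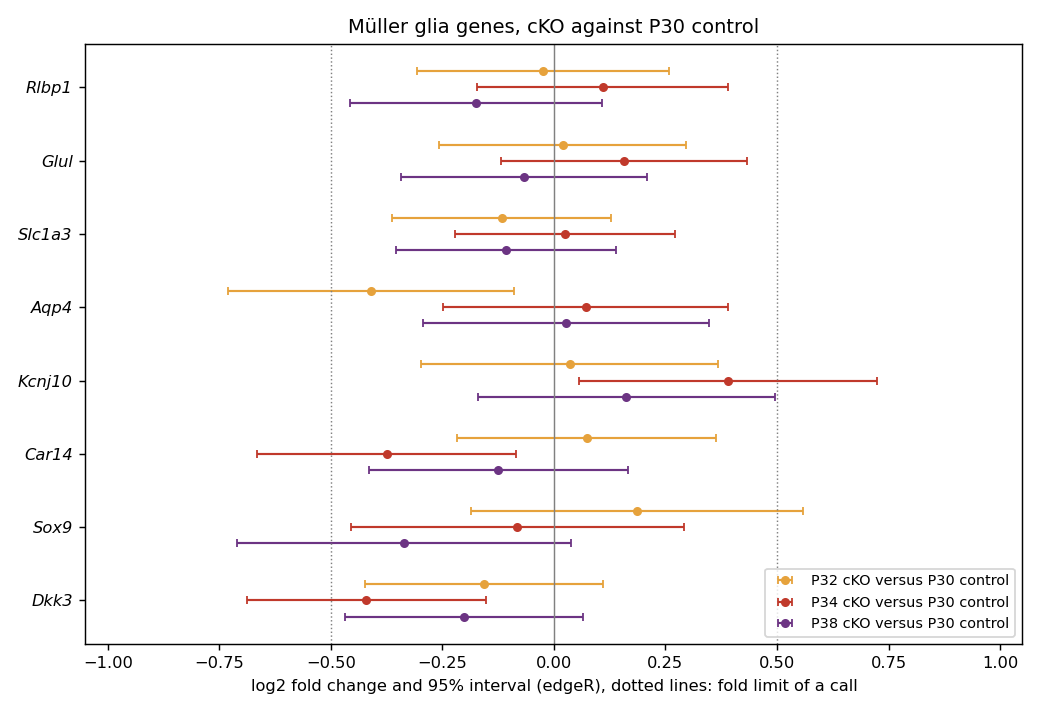
Log2 fold change of each gene at P32, P34 and P38 against P30 control (points) with its 95% interval (bars), from edgeR with all 12 mice in one fit, and dotted lines at 0.5 in size. No point lies beyond the dotted lines, and the intervals of Aqp4 at P32 and of Kcnj10, Car14 and Dkk3 at P34 leave out zero before adjustment over all genes.

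Between the cKO ages, 0 of 8 genes passed from P32 to P34 (0.242% of all genes did), 0 from P34 to P38 (0.199%) and 0 from P32 to P38 (0%), and DESeq2 also called 0 of 8 in each, beside 7.55%, 0.773% and 5% of all genes. From P32 to P34 the DESeq2 test gave Aqp4 an adjusted p of 0.0335 (log2 fold change 0.48) and Car14 one of 0.0264 (-0.45), both under the limit of 0.5 in fold change. Unadjusted p-values were at most 0.05 for 3, 1 and 2 genes, beside 26.9%, 5.08% and 23.3% of all genes. Groups did not overlap for 3 genes from P32 to P34 (Aqp4 and Kcnj10 higher, Car14 lower), 4 from P34 to P38 (Rlbp1 and Glul lower, Car14 and Dkk3 higher) and 2 from P32 to P38 (Aqp4 higher, Sox9 lower), beside 28.4%, 9.95% and 26.4% of all genes. In the step from P34 to P38, Car14 and Dkk3 had log2 fold changes of 0.25 (SE 0.13) and 0.22 (SE 0.12), and Rlbp1 had -0.28 (SE 0.13), with adjusted p of 0.975 to 1 (edgeR). These comparisons share their P32, P34 or P38 mice with one another and with those against P30.

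With the 3 cKO ages averaged, 0 of 8 genes differed from P30 (0.36% of all genes did), and the largest difference was that of Dkk3 (log2 fold change -0.26, SE 0.10, adjusted p = 0.911, edgeR). Dkk3 was also the 1 of 8 genes with an unadjusted p of at most 0.05, beside 4.19% of all genes, and DESeq2 called 0 of 8, beside 0.811% of all genes. A test of any difference among the 4 groups passed for 0 of 8 genes and for 0.344% of all genes, and for 3 of 8 genes (Aqp4, Car14 and Dkk3) at an unadjusted p of at most 0.05, as for 17.2% of all genes. The likelihood ratio test of DESeq2 passed for Dkk3 alone among the 8 (adjusted p = 0.0472) and for 7.31% of all genes.

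From mouse to mouse the 8 genes did not all vary in one direction. Over the 12 mice, Pearson's r of log2 CPM between the 28 pairs of genes ran from -0.74 (Aqp4 with Car14) to 0.81 (Car14 with Dkk3), with 14 pairs above zero and 14 below. Of the 10 pairs among Rlbp1, Glul, Slc1a3, Aqp4 and Kcnj10, 9 were above zero, and all 10 pairs of these genes with Car14 or Dkk3 were below zero, a grouping chosen after the values were seen. Some of these signs rest on values near zero. Within the 5 genes r ran from -0.21 to 0.66, with Rlbp1 at 0.030 with Slc1a3 and 0.013 with Kcnj10. With Car14 or Dkk3 it ran from -0.74 to -0.084. These points share libraries, scaling and groups and are given as a description. Within groups the SD of log2 CPM was lowest for Glul (0.10) and highest for Sox9 (0.22), with a median of 0.16 over the 8 genes beside 0.17 over the 10360 genes at 10 CPM or more. P32 mouse 4 was the lowest of the 12 in 3 genes (Slc1a3, Aqp4 and Kcnj10) and the highest in Sox9. The genes with the most similar profile over the 12 mice, out of 14800 searched, were Gpd1 for Car14 (r = 0.975), 4930481B07Rik for Kcnj10 (0.957), Pmepa1 for Sox9 (0.948), Slitrk6 for Slc1a3 (0.941), Cald1 for Dkk3 (0.939), Slc44a5 for Aqp4 (0.937), Adk for Rlbp1 (0.933) and Zfp251 for Glul (0.837). For the mean of the 8 genes, each centred on its own mean, it was Tcp11l2 (0.882). For the single genes, Spearman's rho was lowest for Zfp251 with Glul (0.608) and ran from 0.811 to 0.979 for the rest. Without P32 mouse 4, Pearson's r of these pairs ran from 0.849 (Zfp251) to 0.973 (Gpd1). It was then 0.859 for Slc44a5 with Aqp4 and 0.896 for Slitrk6 with Slc1a3.

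Beyond the 8 genes, 17 other genes enriched in Müller glia were followed, and 0 passed at any age. Clu (clusterin), Sparc (a matricellular protein) and Apoe (apolipoprotein E) were the most abundant. Their log2 fold changes at P34 were -0.53, -0.69 and -0.60 (adjusted p = 0.517, 0.444 and 0.313, edgeR), with all P34 mice below all P30 mice for Sparc and Apoe. Ciliary body and lens markers were also low in the P34 mice. Sparc was at 287 to 370 CPM there, and at 320 and 356 CPM in P32 mouse 6 and P38 mouse 12, whose ciliary body markers summed to 108 CPM each, the lowest outside P34. The part of these tissues in the values of Clu, Sparc and Apoe was not tested. Median log2 fold changes of the list were 0.06, -0.25 and -0.16. Of 18 genes of reactive gliosis, 0 passed at any age in either direction, with median log2 fold changes of -0.19, -0.22 and -0.08. Cp (ceruloplasmin), Stat3 (a signal transducer) and Gfap, the filament protein that reactive Müller glia make, were the most abundant, with P34 values of -0.48, -0.14 and 0.42. Gfap was at 20.2, 20.1 and 45.1 CPM in the P30 mice and at 47.4, 22.3 and 44.1 CPM in the P34 mice, so the groups overlapped (SE 0.37, adjusted p = 0.734). At P32 all mice (15.1 to 19.1 CPM) lay below all P30 mice, with a log2 fold change of -0.75 that did not pass (adjusted p = 0.698). At P38 Gfap was at 49.1, 23.4 and 29.4 CPM, above all P32 mice. From P32 to P38 its log2 fold change was 1.01 (SE 0.37), which did not pass (adjusted p = 0.152, edgeR). In that step 4 of the 18 genes had all P38 mice above all P32 mice and 0 had them below. Groups apart in either direction were found for 26.4% of all genes. Over the role lists together, 90 genes were tested and 0 passed in edgeR at P32, P34 or P38. At an unadjusted p of at most 0.05, 7, 14 and 6 of them were lower, beside 3.09%, 7.06% and 3.82% of all genes, and 3, 1 and 0 were higher, beside 2.55%, 3.4% and 1.82%, and DESeq2 called Slc7a11 at P34 alone.

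**Figure D4:**
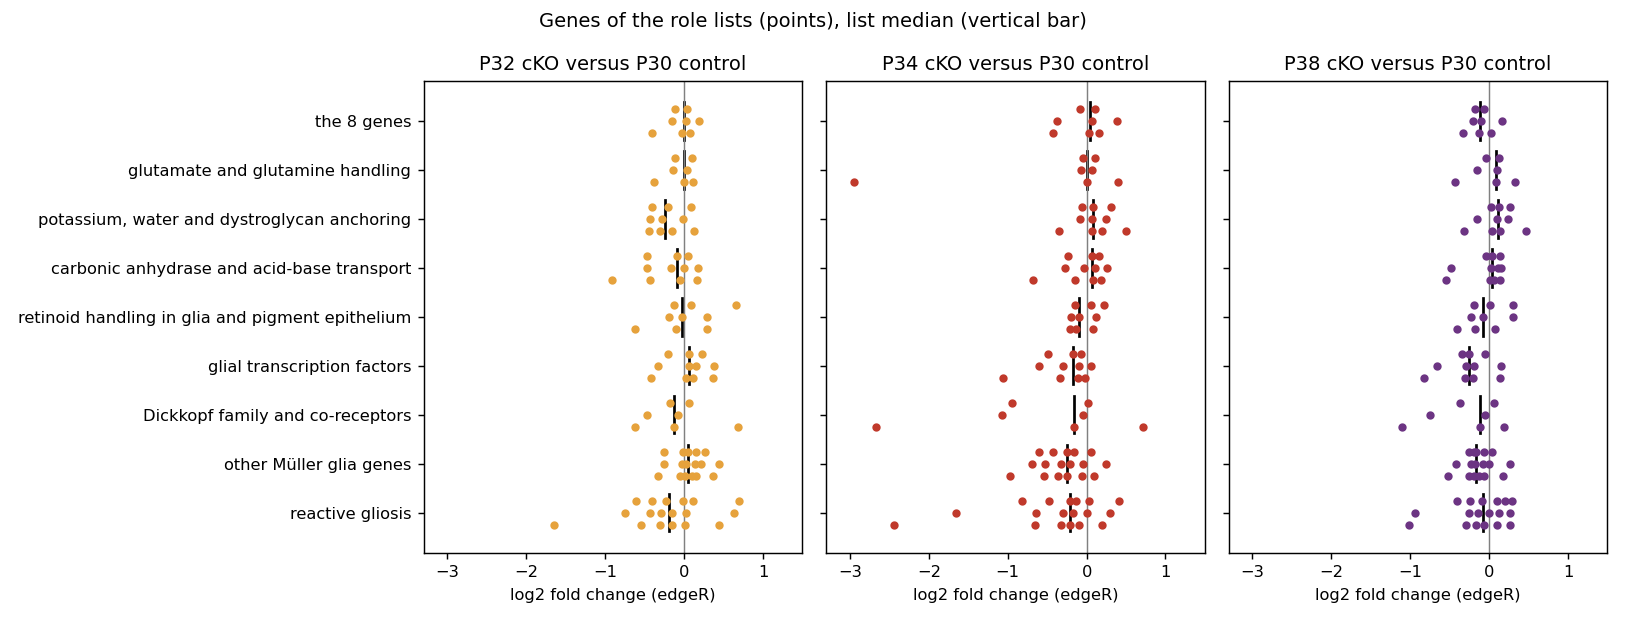
Log2 fold change of every tested gene of the 8 genes and of the role lists (points) at P32, P34 and P38 against P30 control, with the list median (vertical bar). No point passed the threshold, and the point farthest to the left at P34 is Slc7a11 (-2.95).

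Several of the 8 genes are also made outside Müller glia, by astrocytes (Slc1a3, Aqp4, Kcnj10, Glul and Sox9), RPE (Rlbp1 and Car14) or ciliary epithelium, so marker lists were summed in each mouse. No marker was at 0 in all mice. The 6 astrocyte markers, led by Pdgfra, Gfap and S100b, summed to 51.2 to 98.9 CPM in the P30 mice and 43.5 to 127 CPM in the cKO mice, and 0 of 6 passed. The 12 RPE markers, led by Ttr, Pmel and Tyrp1, had 2 genes lower at P34, the pigment genes Tyrp1 and Mlana (log2 fold change -3.73 and -4.42, adjusted p = 0.0317 for both). Over the list 10 of 12 log2 fold changes were negative. The 2 positive ones were those of the visual cycle genes Rpe65 and Lrat (0.33 and 0.28, adjusted p = 0.849 and 0.848), and Rdh5 and Rrh had -0.15 and -0.14 (adjusted p = 0.914 and 0.719). The 10 ciliary body markers, led by Optc, Slc4a5 and Zic1, summed to 207 to 239 CPM at P30, 108 to 214 at P32, 57.2 to 67.3 at P34 and 108 to 176 at P38, and 7 of 10 were lower at P34. The 8 lens markers, led by Cryaa, Crygs and Mip, ranged from 358 to 26000 CPM at P30 and from 181 to 502 CPM at P34. P32 mice 4 and 5 stood at 29460 and 22390 CPM of lens markers and mouse 6 at 487 CPM. The P34 mice, low in Car14 and Dkk3 and high in Kcnj10, were also the mice lowest in ciliary body markers, and the part of these tissues in those values was not tested. With the ciliary body score as covariate the P34 values turned direction, to a log2 fold change of 0.15 (SE 0.28) for Dkk3, 0.14 (SE 0.32) for Car14 and -0.08 (SE 0.38) for Kcnj10. Every P34 mouse was below every other mouse in the summed level of these markers, though not in each marker (Slc4a5 was at 39.2 CPM in P32 mouse 4 and at 39.9 to 42.7 CPM in the P34 mice), and the standard errors were larger than without the score. With the lens score as covariate the P34 values were -0.25 (SE 0.14) for Dkk3, -0.093 (SE 0.12) for Car14 and 0.33 (SE 0.20) for Kcnj10, against -0.42, -0.37 and 0.39 without a score, and did not pass.

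The 13 photoreceptor markers, led by Gnat1, Sag and Pde6b, summed to 29560 to 33100 CPM at P30 and 32430 to 42030 CPM at P34, and 0 of 13 passed. The bipolar, amacrine and horizontal, and ganglion cell lists had 0 genes past the threshold, and ganglion markers summed to 909 to 1289 CPM at P30 and 1228 to 1754 CPM at P34. Of 8 vascular markers 2 were lower at P34 (Acta2 and Myh11, of smooth muscle), and of 8 microglia and macrophage markers 1 was (Mrc1, a macrophage receptor). In P30 mice 1, 2 and 3, Acta2 was at 13.45, 77.9 and 95.21 CPM and Myh11 at 2.65, 46.74 and 53.25 CPM. Mouse 1 thus lay far below mice 2 and 3 in both. The lowest log2 fold changes of the vascular list were -4.66, -4.73 and -4.12 at P32, P34 and P38. Mrc1 was at 0.568 to 1.25 CPM at P30 and at 0.0677 to 0.2205 CPM at P34.

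**Figure D5:**
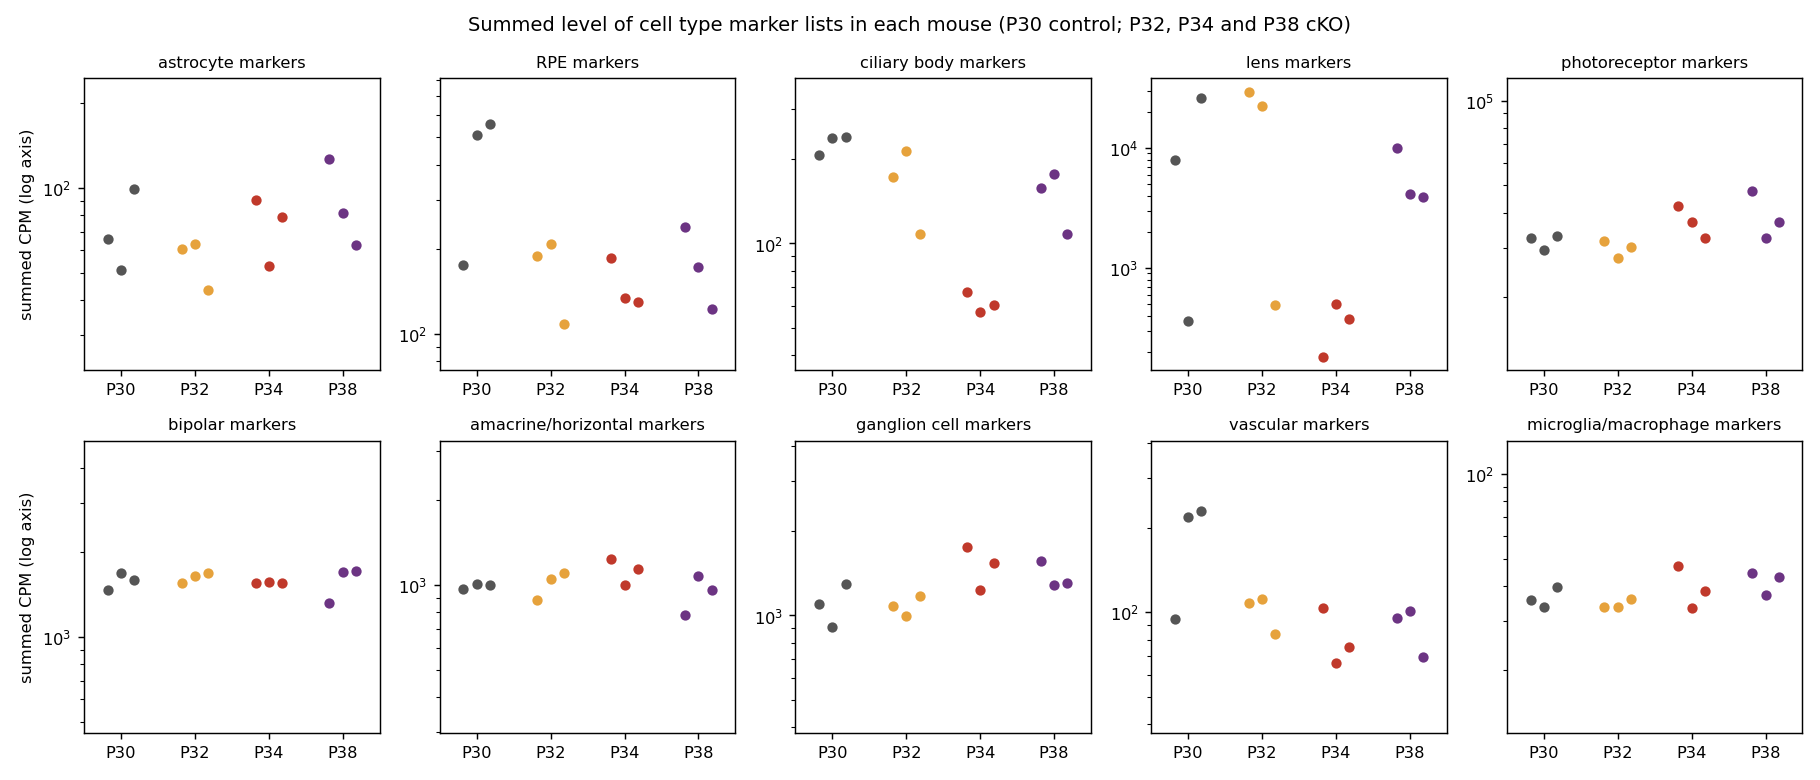
Summed CPM (log axes) of 10 marker lists in each mouse, by group. Ciliary body markers are lowest in the P34 mice (57.2 to 67.3 CPM), lens markers span from 181 to 29460 CPM, and the bipolar list stays between 1324 and 1711 CPM.

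Counts on genes came to 29701483 to 60145034 in a library, so that each of the 8 genes rested on at least 326 counts (Sox9). Otx2 itself was at 293 to 377 CPM in all mice with log2 fold changes of 0.14 to 0.17 from P30. The deletion removes a coding exon, so the count over the whole gene does not check the labels. By Xist, all 3 P30 mice were female, and the P32, P34 and P38 groups held 2, 1 and 1 females.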

How the data were processed

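The authors deposited raw counts per gene, whole numbers without normalization, 1 file per mouse. Reads (single-end, from stranded mRNA libraries) were mapped by the authors to mm10 with STAR 2.5.3a and counted on Ensembl 93 genes with HTSeq 0.6.1p1, which leaves out reads without a unique position (23.7 to 32.2%). The strand setting is not given in the sources used here, and Tsix had 2 to 10 counts beside up to 114682 for Xist. Identifiers were named from GENCODE M21 (99.9%).

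From the counts, edgeR 4.0.16 in R 4.3.3 gave TMM-scaled CPM (3 counts are 0.0499 to 0.101 CPM, counting error only) and a quasi-likelihood fit of all 12 mice with 1 mean per group. P-values were adjusted over 18628 genes by the Benjamini-Hochberg method. They test a difference between groups against the spread between mice within groups, which was estimated over all groups with information shared between genes. The standard error is the log2 fold change over the root of F. FPKM used exonic lengths. The procedure was tested on simulated data, with changes larger than any found for the 8 genes. Its power for differences of their size was not tested. The 8 genes and all lists were chosen with earlier results of these data known.

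Named genes were the 8, every gene of a role list past the threshold and otherwise up to the 3 most abundant, the most abundant markers, and the most similar profiles. Some listed genes are not reported here and were left out of the lists, their counts and sums. Slc7a11, Slc4a4, Rpe65, Lrat, Rdh5, Rrh and the called markers were chosen after their values were seen. Alternatives were other scalings, filters, DESeq2 1.42.0, a robust fit, only the groups compared, sex, leaving out each mouse and, chosen after seeing the data, ciliary body and lens scores (mean log2 CPM of the markers) as covariates. No library pair within a group held the same counts, and pairs between groups were not compared. Splits by batch were not made, since the labels give none.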

Additional observations from a re-analysis of the deposited data

How the results depend on the processing

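No paired analysis was possible because the replicate numbers run from 1 to 12 and no number is shared between groups. Over 22 alternatives, 12 of them leaving out 1 mouse, the 24 differences of the 8 genes from P30 gave 528 values, of which 496 kept their direction and side of the threshold, 32 changed sign without passing and 0 passed. No scaling moved the median log2 fold change of all genes by over 0.1. The causes were not tested. The depth gave at least 326 counts for each gene in each library.

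The count of genes past the threshold rose from 0 to 2 between P32 and P34 (Aqp4 and Car14) and to 1 between P32 and P38 (Aqp4) without P32 mouse 6, and to 1 among the 4 groups (Dkk3) with the DESeq2 test. Leaving out 1 mouse, the first of these ran from 0 to 2 and the second from 0 to 1.

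With the ciliary body score as covariate, the log2 fold changes that turned direction were 0.032 for Rlbp1, -0.049 for Glul and -0.090 for Kcnj10 at P32. At P34 they were -0.11 for Glul, -0.41 for Slc1a3, -0.35 for Aqp4, -0.084 for Kcnj10, 0.14 for Car14, 0.15 for Sox9, 0.15 for Dkk3 and 1.72 for Slc7a11, and at P38 -0.068 for Aqp4 and 0.0017 for Car14. With the ciliary body score the SEs of the 8 genes at P34 ran from 0.27 (Slc1a3) to 0.46 (Sox9), and none passed. Without the score those SEs were 0.11 and 0.17. Every P34 mouse was below every other mouse in the summed level of these markers. That fit can therefore hardly separate the score from the P34 group, and the turned directions decide nothing. With the lens score Slc1a3 was at -0.11 and Aqp4 at -0.18 at P34. With only the groups compared Rlbp1 was at 0.0067 at P32, and with sex as covariate Glul was at 0.0081 at P38. The median of the 8 genes moved to -0.036 at P32 with the ciliary body score and to -0.069 at P34 with the lens score.

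Leaving out 1 mouse, the median of the 8 genes ran from -0.058 to 0.0067 at P32, -0.025 to 0.089 at P34 and -0.15 to -0.088 at P38. Log2 fold changes that crossed zero at P32 ran from -0.11 to 0.032 (Rlbp1), -0.049 to 0.063 (Glul), -0.067 to 0.18 (Kcnj10) and -0.033 to 0.19 (Car14). At P34 they ran from -0.040 to 0.20 (Rlbp1), -0.0044 to 0.053 (Slc1a3), -0.045 to 0.16 (Aqp4) and -0.25 to 0.081 (Sox9), and at P38 from -0.082 to 0.11 (Aqp4). The differences of Kcnj10, Car14 and Dkk3 at P34 kept their direction without any 1 mouse. Other values moved in size without crossing zero or passing. Sox9 ran from 0.022 to 0.35 at P32 and from -0.50 to -0.17 at P38, and Aqp4 from -0.56 to -0.27 at P32.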
